A study of Mus musculus with 4 samples.

Results

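Integrins and laminins are the receptors and the basement membrane proteins through which heart cells hold on to their matrix. The set described here is every probe set that names a single gene whose symbol is Itga, Itgb, Lama, Lamb or Lamc followed by digits, or by a letter and at most 1 digit. The rule found 73 probe sets of 34 genes (of 18193 genes named) among the 45037 probe sets of the array that are not controls, 54 for 24 integrin genes and 19 for 10 laminin genes. It uses symbols alone and no measured value. Itgbl1 fits the letters of the rule but encodes a secreted protein related to integrin beta chains and no receptor chain. The platelet chain Itga2b, Itgb2l and the binding proteins Itgb1bp1, Itgb1bp2 and Itgb3bp lie outside it.

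The samples were heart ventricles of mouse embryos at embryonic day 17.5 from a C57BL/6 by SV129 cross, each hybridised as a pool to 1 Affymetrix array. The wild-type group (WT) had 2 pools of 2 animals, and the group lacking HDAC2 (KO), their littermates, had 2 pools of 3 animals. The labels give neither the Hdac2 allele nor the sex of the embryos, and no label says whether pools shared animals, so p-values here cover pool-to-pool spread alone, part of which may be technical. HDAC2 is a histone deacetylase, an enzyme that removes acetyl groups from histones and is usually found in repressor complexes, and the arrays set ventricles with it against ventricles without it.

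As background, a laminin is a trimer of an alpha, a beta and a gamma chain that polymerises into the sheet of the basement membrane. An integrin is a membrane-spanning pair of an alpha and a beta chain, and the pairing sets which ligand it binds: laminins, collagens, or proteins with the short RGD motif such as fibronectin and vitronectin. Inside the cell the beta chain binds talin and kindlin and so reaches actin. In heart muscle this linkage sits at the costamere, where it runs beside the dystroglycan complex, the other main laminin receptor.

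Some facts of the whole series bear on every value. Hdac2 itself gave 1189 and 1421 in WT against 31.4 and 21.0 in KO at its brightest probe set, which fits the titles, from which the groups were taken; the source field of both KO samples reads wild type instead. Each marker gene was read at a single probe set, its brightest tested or, where none was tested, its brightest. All 9 cardiomyocyte markers were detected on all 4 arrays. Fast and embryonic skeletal muscle transcripts fell, 10 of 12 tested, and the summed signal of that 16-gene list went from 12562 to 13514 in WT to 1334 to 1373 in KO, with Myog, Myod1, Myh2 and Pax7 not detected on any array. Of 6 bone, cartilage and tendon markers tested, 3 fell. Xist, which coats the inactive X chromosome, gave 80.5 and 90.1 in WT against 548 and 794 in KO at 1436936_s_at. At 1427262_at it gave 1.3 and 6.1 in WT, with no Present call, against 413.7 and 797.1 in KO. The labels do not give the sex of the embryos, so any difference in sex makeup between the groups cannot be told apart from genotype. The ratio of the 3′ to the 5′ actin control, which rises as RNA gets shorter, was 1.85 and 2.32 in WT against 2.75 and 2.42 in KO. What part any of these differences has in the values below was not tested, and in bulk tissue fewer cells of a type and less RNA per cell cannot be told apart.

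The detection calls described which chain transcripts could be told from background in these pools. Each probe set carries a MAS5 call of Present, Marginal or Absent on each array, and a probe set was tested where either group had Present on both of its arrays. Of the 73 probe sets, 27 met this, for 18 genes, 12 of the integrin set and 6 of the laminins. Of those 27, 23 were Present on all 4 arrays, 2 passed through WT alone (Itga7 and a dim Lama4 probe set) and 2 through KO alone (Itgbl1 and Lama5), so the last 4 were admitted by the group in which they were detected. A further 40 probe sets were Absent on every array.

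**Figure D1:**
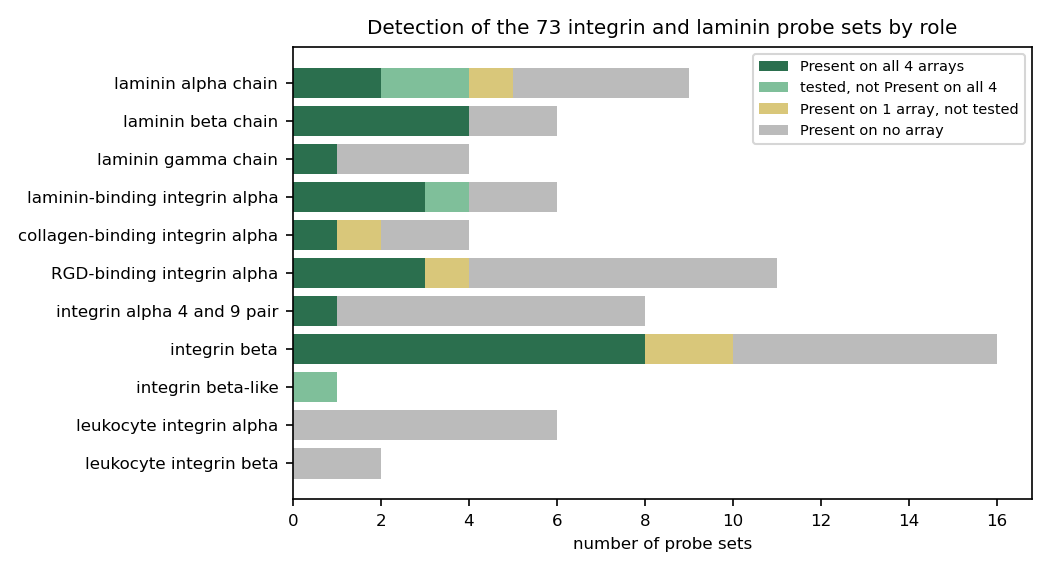
Horizontal bars count the 73 integrin and laminin probe sets in each role, split by how often the MAS5 call was Present. Integrin beta chains have the most probe sets Present on all 4 arrays (8), and none of the leukocyte integrin probe sets is Present on any array.

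The detection calls of the laminins differed from chain to chain. Lama2, the alpha chain of muscle basement membrane, Lama4, which surrounds vessels and heart muscle cells, Lamb1, Lamb2 and the shared gamma chain Lamc1 were Present on all 4 arrays at 1 probe set or more. Lama5, a widespread alpha chain, was Present on both KO arrays and on neither WT array at 1427009_at. Lama1, an early embryonic chain, Lama3 and Lamb3, which build the laminin of skin, and Lamc3 were Absent on every array at each of their probe sets. Of the 8 epithelial markers on the array, each read at 1 probe set, Krt8 was Present on all 4 arrays, Krt18 on 3 and Krt14 on 2. Epcam, Krt5, Krt15, Cdh1 and Trp63 were not detected on any array at the probe set read.

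Among the integrins, the receptors of laminin (Itga3, Itga6, Itga7), of collagen (Itga1) and of RGD ligands (Itga5, Itga8, Itgav), together with Itga9, were detected, as were the beta chains Itgb1, Itgb5 and Itgb8. Itga2, a collagen receptor of platelets and epithelia, the epithelial chains Itgb4 and Itgb6, Itgb3, the partner of Itgav and of the platelet chain, and all 5 probe sets of Itga4 were Absent on every array. The platelet chain Itga2b, outside the rule, was Present on both WT arrays (132.8 and 89.1) and both KO arrays (104.5 and 122.0). With Itga2b included, 8 platelet and megakaryocyte markers were on the array. Of these, 3 were detected on both WT arrays, 4 on both KO arrays and 4 on none. Itga10, a collagen receptor of cartilage, was Present on 1 WT array alone. The 6 leukocyte chains (Itgae, Itgal, Itgam, Itgax, Itgb2 and Itgb7, with 8 probe sets) had no Present call, and their signals ran from 1.6 to 51.8. Leukocyte transcripts were nevertheless in the tissue: 9 of 14 leukocyte and macrophage markers were detected on both WT arrays and 10 on both KO arrays, with a summed signal of 1898 and 2042 in WT against 1756 and 1682 in KO. An Absent call says only that a probe set was not told from background, and for a gene with 1 probe set it is a statement about that probe set.

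None of the 27 tested integrin and laminin probe sets passed the threshold of an adjusted p under 0.05, where 1.34% of all 19065 tested did (0.383% higher and 0.96% lower in KO). The fit was limma on the log2 signal, with p adjusted by Benjamini-Hochberg over all 19065, and each difference is the mean log2 signal of KO less that of WT, ± its moderated standard error, from 2 arrays a group. At an unadjusted p under 0.05 there were 3 members, Itgb8 and a Lamb1 probe set higher and an Itgb5 probe set lower, or 11.1% against 15.5% of all probe sets tested (7.29% higher and 8.23% lower). No member reached the exploratory level of an unadjusted p under 0.01 with at least 1.5-fold, which 3.28% of all did. The smallest adjusted p among the members was 0.190, at Itgb8.

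The members' differences were of ordinary size for this array. Their median difference was -0.071 against 0.014 over all probe sets tested, and their median absolute difference was 0.21 against 0.19. Of the 27, 10 had a difference above 0 and 17 below, against 52.0% and 48.0% of all probe sets. Both KO arrays lay above both WT arrays at 6 members (22.2%, against a background of 25.0%) and below both at 10 (37.0%, against 22.5%). The 10 include several probe sets of Itgb5, which are not independent of each other, and Itga7, admitted through WT alone. Itgbl1, admitted through KO alone, is among the 6. These shares therefore do not count separate genes, and whether they differ from the background was not tested. Over the 23 members Present on all 4 arrays the median was again -0.071. A p that misses the threshold does not show that levels were alike, and the 95% intervals show what these arrays could bound: 25 of the 27 lay wholly within a 2-fold difference either way and 16 within 1.5-fold, the 2 wider than 2-fold being Itgb8 and Itgbl1.

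**Figure D2:**
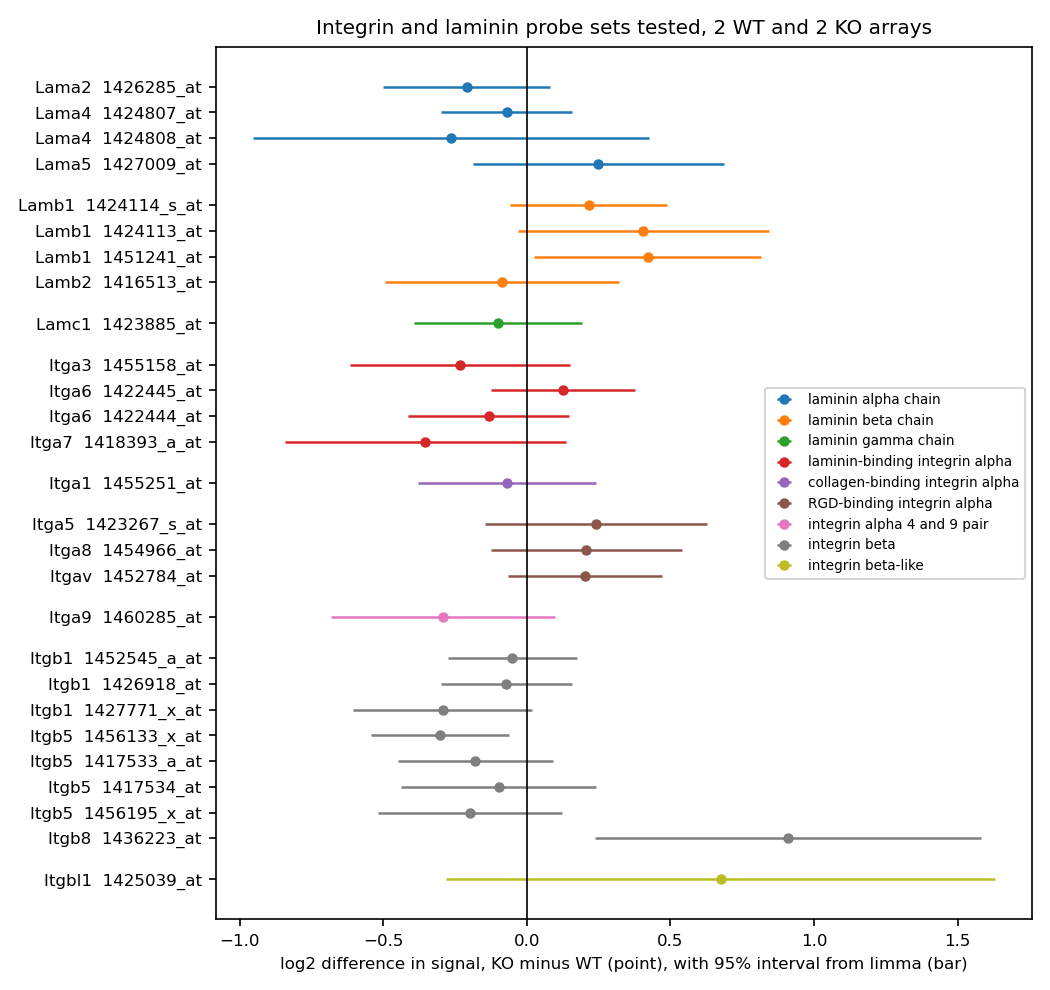
Points give the log2 difference in signal, KO minus WT, for each of the 27 integrin and laminin probe sets tested, with bars for the 95% interval from limma and colours for the role of the chain. Intervals cross 0 at all but Itgb8, 1 Lamb1 and 1 Itgb5 probe set, and Itgb8 has the largest difference, 0.91.

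Itgb8 stood farthest from 0. Its product pairs with the Itgav chain to bind and activate latent TGF-beta. The single probe set, 1436223_at, was dim, at 27.6 and 31.4 in WT against 60.4 and 50.7 in KO, with a Present call on all 4 arrays. Both KO arrays were above both WT arrays, 1.88-fold on average, with a difference of 0.91 ± 0.31 and a 95% interval of 0.24 to 1.58 (unadjusted p = 0.0117, adjusted p = 0.190 in limma). The deposited signal log ratio, the authors' second measure on the same arrays, gave it the opposite sign, at -0.20. By that measure the groups overlapped, at 5.0 and 6.9 in WT against 5.2 and 6.3 in KO, so it gave no clear direction. Without any 1 array the difference in log2 signal stayed between 0.78 and 1.04.

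Itgav, the alpha chain that pairs with Itgb8, Itgb5 and Itgb1, gave 762 and 743 in WT against 796 and 942 in KO at 1452784_at. The KO arrays were both higher, but by 0.20 ± 0.12 (adjusted p = 0.453), and the signal log ratio turned this too, to -0.35. The other 4 probe sets of Itgav were Absent on every array. Tgfb1, the gene of a ligand that Itgav integrins release from its latent form, gave 212 and 220 in WT against 143 and 132 in KO, a difference of -0.65 ± 0.17 that did not pass (adjusted p = 0.0912).

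Itgb5, a beta chain that joins Itgav to bind vitronectin, had 4 tested probe sets, and all 4 differences were below 0. At the brightest, 1456133_x_at, signals were 1173 and 1095 in WT against 902 and 937 in KO. The groups did not overlap there, with a difference of -0.30 ± 0.11 and a 95% interval of -0.54 to -0.061 (unadjusted p = 0.0177, adjusted p = 0.223 in limma). At 1417533_a_at they were 711 and 653 against 629 and 576 (-0.18 ± 0.13), and at 1456195_x_at 300.5 and 297.7 against 270.0 and 252.2 (-0.20 ± 0.15). Both of these also kept the groups apart, while 1417534_at overlapped, at 330.2 and 416.9 against 323.0 and 372.3 (-0.098 ± 0.16). The 4 probe sets read the same gene on the same arrays and are not independent of each other, and none had an adjusted p below 0.223.

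**Figure D3:**
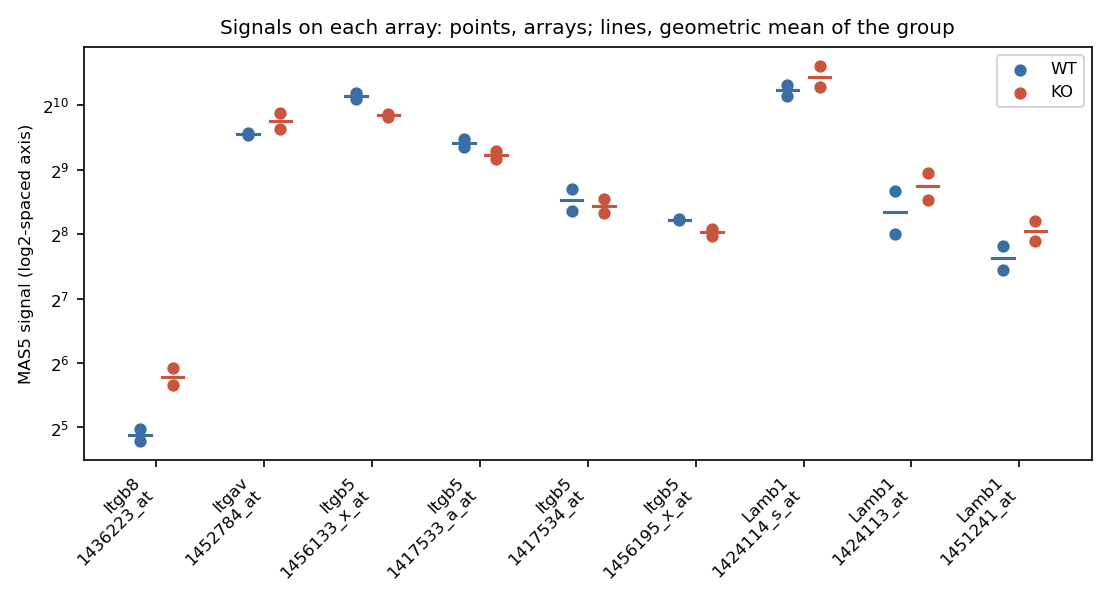
Points are MAS5 signals on each of the 2 WT and 2 KO arrays, on an axis spaced by log2, for the tested probe sets of Itgb8, Itgav, Itgb5 and Lamb1, and short lines are group geometric means. KO points lie above WT at Itgb8 and Itgav and below at 3 of 4 Itgb5 probe sets, and the groups overlap at 2 of 3 Lamb1 probe sets.

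Itgb1, the common partner of the laminin, collagen and fibronectin receptors, was nearly level between the genotypes at its bright probe sets. At 1452545_a_at the signals were 1760 and 1853 in WT against 1836 and 1658 in KO (-0.050 ± 0.10, 95% interval -0.28 to 0.18). At 1426918_at they were 1603 and 1527 against 1562 and 1420 (-0.071 ± 0.11). The groups overlapped at both. The dimmer 1427771_x_at gave 475 and 397 in WT against 343 and 367 in KO, with both KO arrays lower (-0.29 ± 0.15, adjusted p = 0.356). The other 3 Itgb1 probe sets were not tested, with signals from 4.1 to 23.6.

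The laminin-binding alpha chains gave no shared direction. Itga6, found on vessels and many basement membrane contacts, gave 712 and 749 in WT against 794 and 799 in KO at 1422445_at, and 507 and 496 against 441 and 475 at 1422444_at. The groups stayed apart at both probe sets but in opposite directions (0.13 ± 0.12 and -0.13 ± 0.13). Itga7, the main laminin receptor chain of striated muscle, gave 96.4 and 86.9 in WT against 70.0 and 73.4 in KO, with 1 KO array called Absent (-0.35 ± 0.23, adjusted p = 0.476). Itga3 was at 182 and 186 in WT against 171 and 144 in KO (-0.23 ± 0.18). Skeletal muscle also makes Itga7, and its marker list had a median difference of -4.23 over the 12 genes tested; whether the lower Itga7 signal shares a source with that fall was not tested.

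The 3 RGD-binding alpha chains all had differences above 0 and none passed. Itga8, the receptor of nephronectin, gave 266 and 246 in WT against 276 and 317 in KO at 1454966_at, both KO arrays higher (0.21 ± 0.16, adjusted p = 0.546), and the signal log ratio put it at -0.10. Npnt, which encodes nephronectin, read 86.1 and 104.5 against 56.5 and 43.6 (-0.93 ± 0.26, adjusted p = 0.104). Itga5, the fibronectin receptor chain, read 315 and 239 against 369 and 285 at 1423267_s_at, with overlapping groups (0.24 ± 0.18). Its difference was 0.042 without WT replicate 2 and 0.054 without KO replicate 1. Fn1, the gene of fibronectin, gave 2013 and 2281 in WT against 2351 and 2462 in KO (0.17 ± 0.10, adjusted p = 0.456).

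Of the remaining alpha chains, Itga1, a collagen receptor of mesenchymal cells and microvessels, overlapped between the groups at 335 and 381 in WT against 336 and 344 in KO (-0.070 ± 0.14). Itga9, which binds tenascin and osteopontin among others, was lower on both KO arrays at 1460285_at, 235 and 184 against 176 and 164 (-0.29 ± 0.18, adjusted p = 0.461). Itgbl1 was close to the detection limit, at 14.1 and 18.8 in WT, where 1 array was Absent, and 30.3 and 22.3 in KO (0.67 ± 0.44, 95% interval -0.28 to 1.63, adjusted p = 0.484).

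Lamb1, the beta chain of most embryonic laminins, had differences above 0 at all 3 tested probe sets. At 1451241_at signals were 226 and 174 in WT against 237 and 296 in KO, both KO arrays higher (0.42 ± 0.18, 95% interval 0.025 to 0.82, unadjusted p = 0.0386, adjusted p = 0.295 in limma). At 1424113_at they were 407 and 258 against 372 and 495 (0.41 ± 0.20), and at the brightest, 1424114_s_at, 1136 and 1270 against 1241 and 1567 (0.22 ± 0.13). These last 2 overlapped between the groups. The size at 1424113_at moved with the WT arrays, to 0.74 without WT replicate 1 and 0.075 without WT replicate 2. Without KO replicate 2, which was the highest of the 4 arrays at all 3 probe sets, the differences were 0.26, 0.20 and 0.047 in the same order. Lamb2, the alternative beta chain, found in muscle and vessel basement membranes, gave 229 and 167 in WT against 192 and 177 in KO (-0.086 ± 0.19), with overlapping groups. Whether Lamb1 and Lamb2 differed from each other in their response was not tested.

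None of the laminin alpha or gamma chains had an adjusted p below 0.475 on the log2 signal. Lama2 gave 463 and 484 in WT against 387 and 433 in KO, both KO arrays lower (-0.21 ± 0.14, adjusted p = 0.475), and the signal log ratio put it at 0.050. Skeletal muscle expresses Lama2 as well, and the part of the lower skeletal muscle signal in it was not tested. Lama4 read 1433 and 1468 against 1335 and 1430 at its bright 1424807_at (-0.070 ± 0.11, 95% interval -0.30 to 0.16), and 46.5 and 46.0 against 31.6 and 47.0 at the dim 1424808_at (-0.26 ± 0.32), where the signal log ratio gave -1.20 (adjusted p = 0.356). Lamc1, the gamma chain that nearly all laminins of these tissues share, gave 1147 and 1338 in WT against 1318 and 1015 in KO, with KO 2 lowest and WT 2 highest (-0.099 ± 0.14).

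Lama5 was tested through the KO arrays alone. At 1427009_at it read 364 and 246 in WT, called Marginal and Absent, and 423 and 299 in KO, called Present on both arrays. The signals overlapped, however, with a difference of 0.25 ± 0.20 (95% interval -0.19 to 0.69, adjusted p = 0.586), and the sign turned without KO replicate 1 (-0.00031) and without WT replicate 2 (-0.035). A second probe set, 1427010_s_at, gave 124.5 and 122.9 in WT against 219.0 and 147.3 in KO, Present on 1 KO array alone and therefore not tested. The remaining Lama5 probe set, 1459614_at, was Absent on every array and went the other way, at 3.7 and 17.3 in WT against 0.6 and 3.4 in KO.

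The genes around the integrins and laminins were read from 4 fixed lists, chosen with earlier results of these data known. For each gene the brightest tested probe set was taken, the 1 with the highest mean log2 signal over all 4 arrays. Counts in the lists are of genes, while background shares are of probe sets. The laminin receptor Bcam fell in KO. It was the 1 gene of the 15 tested in the list of the dystroglycan complex and other laminin receptors that passed. Over all probe sets tested 1.34% passed. Bcam, the Lutheran glycoprotein, is a cell-surface receptor specific for the Lama5 chain and is no part of the dystroglycan complex itself. It gave 1535 and 1405 in WT against 1000 and 803 in KO, with both KO arrays well below both WT arrays. That is 1.64-fold lower, or -0.71 ± 0.13 with a 95% interval of -0.98 to -0.44 (adjusted p = 0.0113 in limma). Leaving out WT replicate 1 ended the call (adjusted p = 0.0714), as did testing without the filter on detection (0.196), without a variance trend (0.249) and on the signal log ratio (0.357), at differences of -0.65 to -0.85. No other member of the list passed: Dag1, dystroglycan itself, read 1395 and 1549 against 1697 and 1509 (0.12 ± 0.11), and Dmd, dystrophin, read 409 and 395 against 355 and 344 (-0.20 ± 0.14). At an unadjusted p under 0.05 the list had 1 higher and 2 lower, where 7.29% and 8.23% of all probe sets tested were. Besides Bcam these were Utrn, higher at 0.37 ± 0.14, and Dtna, lower at -0.47 ± 0.18. The median of the list was -0.079.

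Among 20 tested genes of integrin ligands other than laminins, 3 fell (against 0.96% of all probe sets tested) and none rose (against 0.383%). The median of the 20 was -0.17 against 0.014 over all probe sets. This list too was chosen with earlier results of these data known, and it counts genes where the background counts probe sets. Whether the shares differ was not tested. Col1a1 and Col1a2, the type I collagen chains bound by Itga1 and its relatives, and Ibsp, an RGD protein of bone, were those 3. At the probe set with the higher mean over all arrays, 1417485_at, Ibsp gave 48.9 and 53.6 in WT against 8.7 and 17.0 in KO, where neither array called it Present (-2.07 ± 0.43, adjusted p = 0.0319, lost without WT replicate 1 at 0.108, without WT replicate 2 at 0.117 and with quantile normalization at 0.0590). At the other Ibsp probe set, 1417484_at, brighter in WT, signals were 206 and 192 against 1.1 and 0.20, at least 32.6-fold lower in KO (adjusted p = 4.09e-05), and that call was lost in the signal log ratio alone (0.0514). Col1a2 read 2796 and 2999 against 1999 and 1960 (-0.55 ± 0.097, adjusted p = 0.0118, lost without WT replicate 2 at 0.102), and Col1a1 read 2165 and 2206 against 1330 and 1301 (-0.73 ± 0.10, adjusted p = 0.00199). A dimmer Col1a1 probe set, 1455494_at, was lower on both KO arrays too, at 686 and 655 against 529 and 503, but did not pass (-0.38 ± 0.12, adjusted p = 0.172). A second Col1a2 probe set, 1423110_at, also fell (-0.49 ± 0.11, adjusted p = 0.0402), a call lost with any array left out except KO replicate 1 (0.0942 to 0.231). At the probe sets that stand for the 3 genes the calls were also lost without the filter on detection, without a variance trend and in the signal log ratio. Ibsp belongs to the bone, cartilage and tendon list too, whose summed signal was 645 and 580 in WT against 298 and 280 in KO; the part of such tissue in these falls was not tested. At an unadjusted p under 0.05 the list had 2 higher and 6 lower, where 7.29% and 8.23% of all probe sets tested were. Vcam1, a ligand of Itga4 and Itga9, was the higher one with the smaller p, at 676 and 729 against 895 and 914 (0.37 ± 0.12, adjusted p = 0.160).

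The list of the intracellular side of the linkage, which also takes in membrane proteins such as Cd47, held no call. Of 35 tested genes of the integrin adhesion complex, 0 passed in limma, with 3 at an unadjusted p under 0.05, all higher. Over all probe sets tested 15.5% had such a p, 7.29% higher and 8.23% lower. Of the 35 differences 13 were above 0 and 22 below, with a median of -0.016. Cd47, a membrane partner of Itgav integrins, had the smallest p, at 321 and 319 in WT against 432 and 405 in KO (0.38 ± 0.14, adjusted p = 0.210), and of its other 3 tested probe sets 2 had the same sign (0.12 ± 0.14 and 0.33 ± 0.22) and the dimmest the opposite one (-0.39 ± 0.42). Tln1, a talin that activates integrins, read 970 and 885 against 764 and 807 (-0.24 ± 0.12), Ilk, the pseudokinase that links beta chains to parvins, 1675 and 1645 against 1639 and 1555 (-0.057 ± 0.10), Fermt2, the kindlin of the heart, 3103 and 3248 against 3309 and 3142 (0.022 ± 0.094), and Vcl, vinculin, 2836 and 3273 against 3317 and 3598 (0.18 ± 0.10). Itgb1bp2, the muscle protein melusin that binds the Itgb1 tail, gave 1669 and 1562 in WT against 1339 and 1709 in KO, with overlapping groups (-0.094 ± 0.12, adjusted p = 0.759).

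Of 18 tested basement membrane partners of laminin, 0 passed in limma and 2 had an unadjusted p under 0.05, against 15.5% of all probe sets tested. The median was -0.021. Hspg2, the heparan sulphate proteoglycan perlecan, had the smallest p, at 987 and 904 in WT against 760 and 551 in KO (-0.55 ± 0.15, adjusted p = 0.0970), and its second probe set overlapped between the groups (-0.22 ± 0.18). The difference of Hspg2 passed without KO replicate 1, at -0.78 (adjusted p = 0.00598), and stood at -0.32 without KO replicate 2. Nid1, nidogen, which ties laminin to type IV collagen, was at 1095 and 1181 against 1243 and 1199 (0.10 ± 0.11), and Col4a1, a chain of that collagen, at 4963 and 5033 against 4710 and 4884 (-0.059 ± 0.087).

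**Figure D4:**
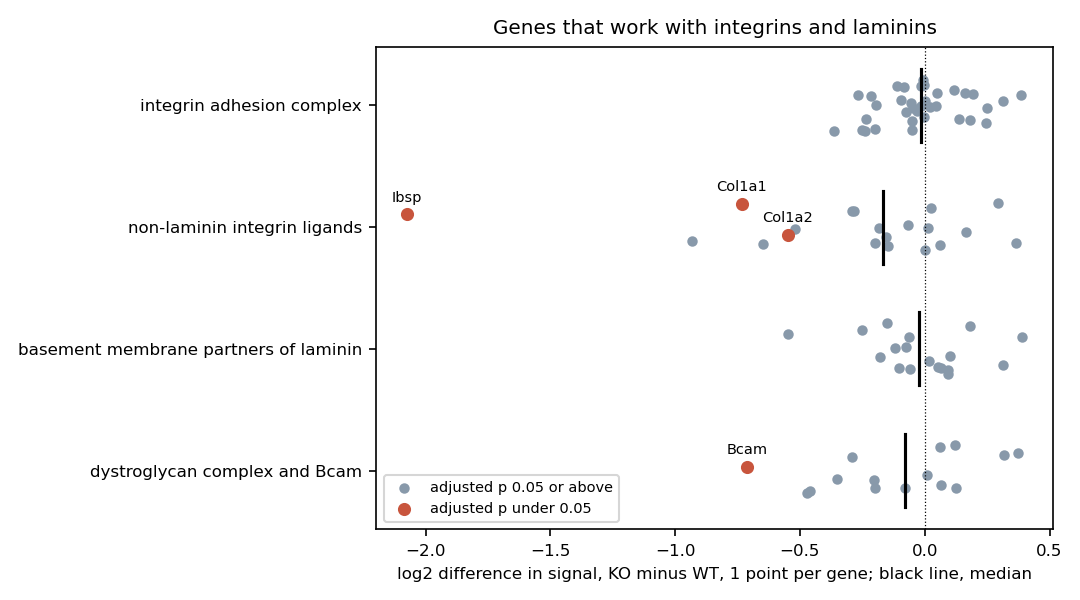
Each point is the log2 difference in signal, KO minus WT, of the brightest tested probe set of a gene in 4 fixed lists, with red for adjusted p under 0.05 and black lines for medians. The 4 red points, Ibsp, Col1a1, Col1a2 and Bcam, all lie below 0, and no gene of the adhesion complex or of the basement membrane list is red.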

How the data were processed

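The authors made the deposited signal, an intensity on a linear scale, with MAS5, per the submitters' processing notes (version: not given in the sources used here). Per the file headers, the deposited detection p-value comes with a Present, Marginal or Absent call, and the authors also deposited a log2 ratio of each signal to an unnamed baseline array (the signal log ratio). The series table held the same signals. Of 45101 probe sets, 64 controls were left out. Names came from the platform annotation, with symbols updated through gene identifiers in a RefSeq table of GRCm38.p6, which changed 0 member symbols.

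Signals of 0 were set to 0.1 before the log, and log2 signals of all 4 arrays were fitted with limma 3.58.1 in R 4.3.3 (lmFit, eBayes with a variance trend), genotype alone, two-sided, on the 19065 probe sets Present on both arrays of a group. The code was tested on simulated data. Where a group had no Present call, the fold is a lower bound, "at least", in which no dim signal counts as less than the lowest Present signal of its array. With 2 arrays a group, their number limits the precision. Every member is accounted for: those with an unadjusted p under 0.05 and the brightest tested probe set of each member gene are given by array, and of each fixed list the genes called, or the 1 with the smallest p. Other list genes named (such as Tgfb1, Npnt, Fn1, Dag1, Dmd, Vcam1, Tln1, Ilk, Fermt2, Vcl, Itgb1bp2, Nid1 and Col4a1) and second probe sets of list genes were chosen after their values were seen. The members and lists were chosen with earlier results of these data known.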

Additional observations from a re-analysis of the deposited data

How the results depend on the processing

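No alternative gave an integrin or laminin probe set an adjusted p under 0.05. Tried were offsets of 16 and 64 before the log, the signal log ratio, quantile normalization, median centring, the replicate number as a block, a robust variance prior or no variance trend, a looser or stricter detection filter, and each array left out. The count of members past the exploratory level went from 0 to 1 with Present on all 4 arrays, no variance trend, an offset of 16 and quantile normalization (Itgb8 each time), in the signal log ratio (the dim Lama4 probe set), and to between 0 and 1 with an array left out (Lamb1 1424113_at without WT replicate 1). In the signal log ratio 6 differences had the other sign: Itgb8 at -0.20, Itgav at -0.35, Itga8 at -0.10, and Itgb1 1452545_a_at, Lama2 and Lamc1 at 0.050. The deposited ratios are rounded, and 0.050 is smaller than their step. With an array left out the sign turned at Itgb1 1452545_a_at (-0.12 to 0.024), Itgb5 1417534_at (-0.27 to 0.071), Lama4 1424808_at (-0.55 to 0.023), Lama5 1427009_at (-0.035 to 0.53), Lamb2 (-0.31 to 0.14), Lamc1 (-0.29 to 0.089) and Itga1 (-0.16 to 0.022). The cause was not tested. Over all probe sets 256 were called, 37 without the detection filter, 23 without a variance trend, 0 in the signal log ratio (0 higher and 0 lower) and from 163 to 650 with an array left out. Over all probe sets tested, samples of the same number did not deviate together (r = -0.011 between their deviations from the group means). With 2 arrays a group this cannot show whether samples of the same number were handled as pairs. The fit with the replicate block called 721, and 0 members, and Hspg2 passed in it (adjusted p = 0.00798). Dim probe sets such as Itgb8 and Itgbl1 have the widest errors.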
